A study of Fragaria vesca with 12 samples.

Results

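The heat shock proteins and heat shock factors of ripe strawberry fruit were described by their expression in 4 postharvest conditions. The members were the genes whose description in the deposited table names heat shock or HSP20, without those that name calmodulin, and they came to 244 of 34008 genes. By the words of the same description, 48 were small HSPs, 86 HSP70, 8 HSP90, 77 DNAJ proteins, 15 heat shock factors and 10 others (HSP101, HSP60, HSP91 and heat shock factor binding proteins). The rule itself used no measured value, although it was chosen with earlier results of these data known.

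All fruit were ripe *Fragaria vesca* 'Mara des Bois'. CO2-cold stored fruit (CCS) were kept at 1°C for 7 days, the first 2 of them under 18% CO2, 18% O2 and 64% N2 and the other 5 in air, and were then held for 1 day at 20°C. Air-cold stored fruit (ACS) had the same days at 1°C in air and the same day at 20°C. Non-cold stored fruit (NCS) spent 2 days at 20°C and 80% relative humidity, and fruit after harvest (AH) were taken within 2 hours as the control. Each condition had 3 libraries from pooled powder of whole fruits, so that receptacle and achenes (the seed-bearing fruits on its surface) were measured together. The labels put at least 50 fruits in each library, while the methods also describe smaller frozen batches, so the number of fruits per library is uncertain. The study describes a single container for ACS and a single container for CCS. CO2 and container cannot be told apart, and p-values measure the spread between libraries of a lot of fruit. In comparisons of cold-stored fruit with NCS or AH, the cold, the time since harvest and the time at 20°C differ together and cannot be told apart.

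Small HSPs bind unfolding proteins and keep them from aggregating. HSP70, with DNAJ proteins that deliver clients and stimulate its ATPase, refolds them, HSP90 matures signalling proteins, HSP101 pulls aggregates apart and HSP60 folds proteins inside mitochondria. Heat shock factors bind the promoters of these genes: class A factors activate them, while class B factors lack that activation domain and in Arabidopsis mostly repress. In plants several small HSPs and factors are also made in maturing seeds without heat.

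By totals recovered from the RPKM values, the libraries held 64.2 to 119.9 M reads, of which 94.0 to 96.0% lay on genes. Smaller totals with longer genes would fit as well, and the largest that fitted was taken. The paper gives its depth in read pairs instead. The unit is RPKM, in which reads are divided by gene length in kilobases and by M reads of the library. For a gene of median length, 10 reads equalled 0.0349 to 0.0652 RPKM, depending on the library. Of the 244 members, 22 were at 0 in all 12 libraries and 110 never reached 0.5 RPKM. The share that stayed so low was largest among HSP70 genes, at 68 of 86, against 27 of 77 DNAJ, 10 of 48 small HSP and 1 of 15 factor genes. In 58 members the second description in the table reads as a subunit of RNA polymerase, a text that 7792 genes of the table carry, so that roles were taken from it only where it names a chaperone or factor. CCS replicate 3 and ACS replicate 1 stood apart from their groups in several small HSPs, and values without them are given beside the results whose calls they change.

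The small HSPs had their highest summed level at harvest and the factors had their lowest there. The 48 small HSP genes summed to 919, 881 and 579 RPKM in CCS, 1006, 711 and 705 in ACS, 520, 540 and 509 in NCS, and 2144, 1829 and 1619 in AH. All stored libraries lay below all AH libraries, and CCS replicate 3 lay closer to NCS than to the other CCS libraries. The 15 factor genes summed to 109 ± 2.52 RPKM in CCS, 120 ± 3.68 in ACS, 72.7 ± 0.978 in NCS and 54.5 ± 0.351 in AH (SD, n = 3 each), with no overlap between the 4 conditions. This order came from FvH4_1g16030 and FvH4_6g24120, and without them AH was not the lowest. Of the factors tested over AH, 2 of 12 rose in CCS, 3 of 13 in ACS and 4 of 13 in NCS. The HSP70 genes summed to 1080 ± 68.4, 1220 ± 16.4, 1190 ± 39.8 and 1099 ± 18.6 RPKM in CCS, ACS, NCS and AH. HSP90 totals were 362, 372, 373 and 348 RPKM and DNAJ totals 459, 485, 434 and 396 RPKM in the same order. These sums are carried by their most abundant members and were not tested. The higher DNAJ totals of stored fruit came from FvH4_4g18840, whose class is uncertain, and the largest part of the HSP70 totals was FvH4_6g14090. Without these genes AH would have the highest total in both classes.

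For every 2 conditions a limma model was fitted to log2(RPKM + 0.1). A gene entered it where 3 or more of the 6 libraries reached 0.5 RPKM. A gene with a Benjamini-Hochberg adjusted p of 0.05 or less is called changed, and one that also differed by at least 1.5 on the log2 scale is called a DEG. The added 0.1 makes the fold changes of low genes too small. In NCS over AH, 125 members could be tested, of which 10 rose and 46 fell, against 14.7% and 21.4% of all genes tested. In ACS over AH, 14 of 126 rose and 28 fell (all genes 21.9% and 20.9%), and in CCS over AH, 14 of 124 rose and 31 fell (all genes 23.6% and 13.9%). Of all members tested, 36.3% were called in CCS, 33.3% in ACS and 44.8% in NCS over AH, against 37.5%, 42.8% and 36.1% of all genes. Some members passed the filter through 1 of the 2 conditions alone, since all libraries of the other were below 0.5 RPKM, and these had to differ. They were 5 members in CCS, 5 in ACS and 7 in NCS over AH, all of them called. Small HSPs made up 14 of the 31 members that fell in CCS, 14 of the 28 in ACS and 23 of the 46 in NCS. They were 35 of the 124, 126 and 125 members tested in CCS, ACS and NCS.

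Small HSPs fell in stored fruit, and most often in NCS. Of the 35 tested in NCS over AH, none rose and 23 fell, 14 of them as DEGs, and their median log2 fold change was -1.10 (all genes -0.07). DEGs that fell made up 2.36% of all genes in that comparison. In ACS over AH, 1 of 35 rose and 14 fell, with 9 DEGs among the fallers (all genes 1.40%), and in CCS over AH 1 rose and 14 fell, with 10 DEGs (all genes 1.15%). The class medians there were -0.28 and -0.29, against 0.01 and 0.07 over all genes. Leaving out the genes that passed the filter through AH alone, 10 of 31 fell in CCS, 11 of 32 in ACS and 18 of 30 in NCS, with medians of -0.20, -0.26 and -0.85. Of all genes that did not pass through 1 condition alone, 2160 of 15888 fell in CCS, 3290 of 15812 in ACS and 3135 of 15425 in NCS. These 3 comparisons share the AH libraries. In whole fruit, fewer cells of a type and less RNA per cell cannot be told apart.

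**Figure D1:**
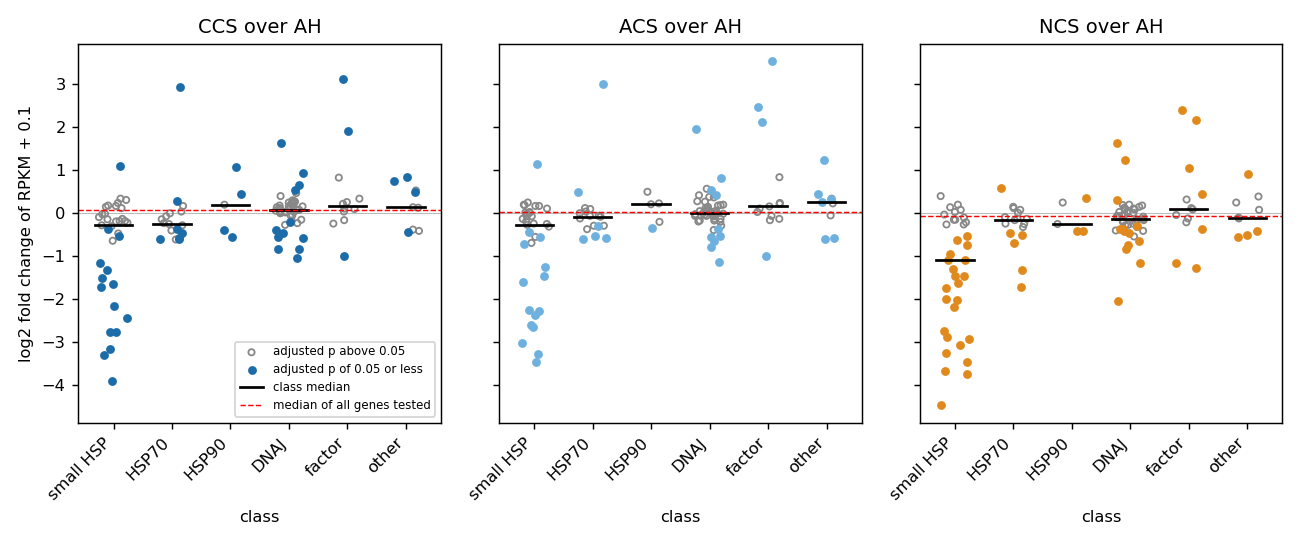
The log2 fold change of RPKM + 0.1 (vertical) of each tested member is plotted by class for CCS, ACS and NCS over AH. Filled points passed the adjusted p of 0.05, black bars are class medians and the dashed line is the median of all genes. The small HSP median lies at -1.10 in NCS and near -0.3 in ACS and CCS, and the highest points are 2 or 3 factors and, in the cold-stored fruit, 1 HSP70.

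A first set of small HSPs was high at harvest and low in all 3 kinds of stored fruit. FvH4_2g31371, a cytosolic class II small HSP and the most abundant in AH, had 40.5, 43.2 and 37.6 RPKM in CCS, 63.1, 51.8 and 49.2 in ACS, 47.3, 44.4 and 43.1 in NCS, and 759, 607 and 492 in AH. The AH libraries stood more than 7 times above any stored library. Against AH its log2 fold change was -3.91 ± 0.16 in CCS, -3.48 ± 0.18 in ACS and -3.76 ± 0.16 in NCS (SE, limma, adjusted p = 9.0e-06, 1.4e-05 and 8.4e-06).

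FvH4_3g38620, a class I small HSP, had 26.3, 28.5 and 27.5 RPKM in CCS, 32, 26.9 and 27.8 in ACS, 35.0, 30.9 and 31.2 in NCS, and 184, 149 and 121 in AH. The stored fruit formed a narrow band below AH. FvH4_3g37330, also class I, averaged 3.25, 2.78, 2.28 and 22.9 RPKM in CCS, ACS, NCS and AH (log2 fold changes over AH of -2.78, -3.02 and -3.27). FvH4_1g07080, described as peroxisomal, averaged 6.20, 7.44, 4.91 and 21.0 RPKM, and FvH4_3g02330, of class V, averaged 3.24, 2.10, 3.07 and 10.5 RPKM. Both were DEGs in CCS and NCS over AH, and FvH4_3g02330 also in ACS, where FvH4_1g07080 fell by 1.47, just short of that limit. FvH4_3g13900, FvH4_3g35280 and FvH4_3g35270, of low level, averaged 3.59, 2.27 and 1.97 RPKM in AH and between 0.125 and 0.428 RPKM in every stored condition, and passed the filter through AH alone. FvH4_3g35270 and FvH4_3g35280 have neighbouring identifiers and may share reads.

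A second set fell in NCS and stayed higher in cold-stored fruit. FvH4_7g32800 encodes HSP21, the chloroplast small HSP that in Arabidopsis protects plastid membranes under heat. It had 30.3, 29.5 and 8.37 RPKM in CCS, 44.5, 15.1 and 16.0 in ACS, 2.39, 3.60 and 2.67 in NCS, and 17.5, 19.1 and 23.2 in AH. NCS lay below every other library, while CCS and ACS each spread across the AH values. The log2 fold change was -2.76 ± 0.17 in NCS over AH (adjusted p = 4.2e-05), 2.91 ± 0.42 in ACS over NCS (0.00209) and 2.74 ± 0.50 in CCS over NCS (0.00504). Without ACS replicate 1 the ACS value was 2.41 (adjusted p = 0.00045), and without CCS replicate 3 the CCS value was 3.35 (7.9e-05). No change was called over AH, with 0.16 ± 0.41 in ACS and -0.02 ± 0.49 in CCS, although without CCS replicate 3 it was 0.59 (adjusted p = 0.0301).

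FvH4_7g23650, a class I small HSP, was lowest in NCS and intermediate in the cold-stored fruit. It had 42.5, 37.6 and 21.8 RPKM in CCS, 69.5, 34.5 and 40.3 in ACS, 10.2, 9.57 and 10 in NCS, and 296, 216 and 176 in AH. The 4 conditions separated except that CCS and ACS overlapped. The log2 fold change was -4.48 ± 0.18 in NCS over AH (adjusted p = 7.9e-06), the largest fall of any member there, and -2.29 ± 0.30 and -2.77 ± 0.29 in ACS and CCS over AH. Over NCS it was 2.20 ± 0.25 in ACS and 1.71 ± 0.24 in CCS (adjusted p = 0.000728 and 0.00159).

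FvH4_7g23710, of the same class, had 76.6, 73.5 and 32.7 RPKM in CCS, 94.4, 55.8 and 58.5 in ACS, 18.4, 21.0 and 18.4 in NCS, and 181, 157 and 153 in AH. Its order of conditions was that of FvH4_7g23650. FvH4_6g52210, also of class I, averaged 6.29, 4.66, 1.12 and 13.2 RPKM in CCS, ACS, NCS and AH, and rose by 2.32 in CCS and 1.86 in ACS over NCS on the log2 scale. Its fall in CCS over AH (-1.16, adjusted p = 0.0443) was lost when CCS replicate 2 or any AH library was left out (adjusted p of 0.0529 to 0.105).

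The mitochondrial small HSPs FvH4_6g29880 and FvH4_6g21590 and the class III gene FvH4_6g35450 were also lowest in NCS. FvH4_6g35450 had 25.6, 22.9 and 8.09 RPKM in CCS, 24.8, 14.2 and 13.2 in ACS, 5.50, 6.15 and 5.14 in NCS, and 15.6 in each AH library. FvH4_6g29880 averaged 14.7 ± 6.81, 15.1 ± 6.32, 5.28 ± 1.42 and 21.1 ± 0.886 RPKM and FvH4_6g21590 averaged 2.76 ± 1.41, 2.95 ± 1.18, 0.859 ± 0.230 and 2.84 ± 0.437 RPKM in CCS, ACS, NCS and AH (SD, n = 3 each). All 3 genes fell in NCS over AH (-1.47, -2.01 and -1.64 in the order FvH4_6g35450, FvH4_6g29880, FvH4_6g21590) and rose in ACS over NCS (1.56, 1.46 and 1.63) and CCS over NCS (1.57, 1.36 and 1.44). The calls in CCS over NCS were fragile: all 3 were lost when CCS replicate 1 or 2 or NCS replicate 1 or 3 was left out, and those of FvH4_6g21590 and FvH4_6g35450 also without NCS replicate 2, with an adjusted p of up to 0.0685 for FvH4_6g35450, 0.101 for FvH4_6g29880 and 0.108 for FvH4_6g21590. Without CCS replicate 3 the values were 2.10, 1.83 and 1.96 (adjusted p = 6.4e-05, 0.00126 and 0.00106). In CCS over AH FvH4_6g35450 differed by 0.11 (adjusted p = 0.872), which became 0.63 (0.00714) without CCS replicate 3. In ACS over AH FvH4_6g29880 differed by -0.56 (adjusted p = 0.137), which became -0.87 (0.00134) without ACS replicate 1.

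FvH4_2g31370, a class II gene whose identifier is next to that of FvH4_2g31371, was not low in all stored fruit as its neighbour was. It had 318, 296 and 107 RPKM in CCS, 327, 192 and 167 in ACS, 97.5, 138 and 90.8 in NCS, and 238, 280 and 279 in AH. It fell by 1.31 in NCS over AH (adjusted p = 0.00109) and was not called in CCS or ACS over AH (-0.29 ± 0.40 and -0.28 ± 0.25), although without ACS replicate 1 the ACS value was -0.57 (adjusted p = 0.0202). CCS and NCS overlapped, with a difference of 1.02 in CCS over NCS that was not called (adjusted p = 0.0907) and that was 1.52 (0.00161) without CCS replicate 3. The pair may share reads, since counting did not use strand. Its rise in ACS over NCS (1.03, adjusted p = 0.0231) was lost without NCS replicate 1 or 3 (0.0698 to 0.0716).

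**Figure D2:**
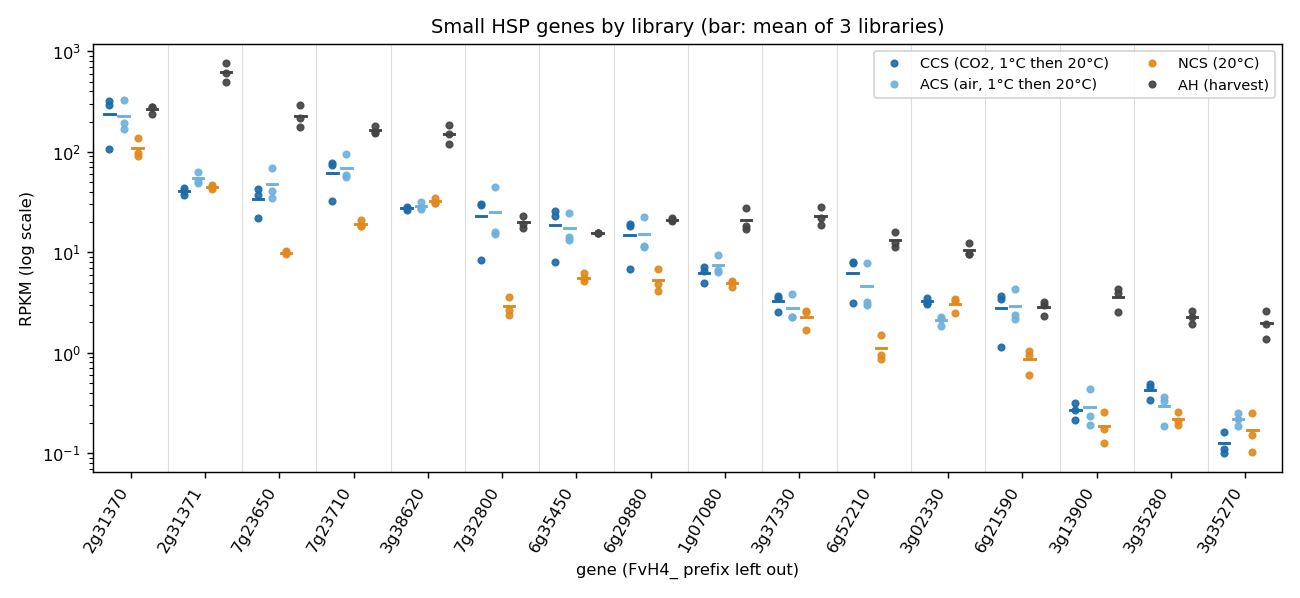
RPKM (log scale) of 16 small HSP genes in every library, with a bar for the mean of 3 libraries of CCS, ACS, NCS and AH. FvH4_2g31371 has 492 to 759 RPKM in AH and at most 63.1 in stored fruit, while FvH4_7g32800 is at 2.39 to 3.60 RPKM in NCS and at 8.37 to 44.5 in the other libraries.

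In the comparisons with NCS, small HSPs were called higher in cold-stored fruit more often than they were called lower. In ACS over NCS, 44 of 122 members tested rose and 9 fell (all genes 30.9% and 17.1%), and of the 31 small HSPs 17 rose, 6 of them as DEGs (all genes 3.10%), and 3 fell. In CCS over NCS, 45 of 120 members rose and 6 fell (all genes 37.6% and 14.0%), and of 31 small HSPs 15 rose, 5 of them as DEGs (all genes 3.05%), and 2 fell. The median of the class was 0.42 in ACS and 0.38 in CCS, against 0.08 and 0.14 over all genes. The split depended on the scaling of the libraries. With median-of-ratios factors the medians of all genes moved to -0.03 in both, the members split 34 to 19 in ACS and 27 to 25 in CCS, and the small HSPs 15 to 6 and 10 to 5. Under that scaling 45.5% of all changed genes were higher in ACS and 44.4% in CCS, against 64.2% and 51.9% of the changed members. Without ACS replicate 1 only 3 small HSPs were DEGs in ACS over NCS. In CCS over NCS, 9 small HSPs rose without CCS replicate 2, 10 without NCS replicate 1 or 3, and 17, with 8 DEGs, without CCS replicate 3. There were 3 DEGs without CCS replicate 1 or 2.

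FvH4_3g21680, of class VI, was the single small HSP called higher over AH in ACS and in CCS, and was picked out for these calls. It had 16.7, 15.6 and 16.0 RPKM in CCS, 17.1, 16.2 and 16.1 in ACS, 10.5, 9.04 and 9.83 in NCS, and 9.11, 7.29 and 6.24 in AH. The cold-stored libraries stood above all others, and CCS and ACS overlapped. Its log2 fold change over AH was 1.10 ± 0.14 in CCS and 1.13 ± 0.14 in ACS (adjusted p = 0.00116 and 0.00086) and 0.39 ± 0.15 in NCS (0.084). CCS and ACS exceeded NCS by 0.71 and 0.74.

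The HSP20-like description also covers genes that the second description does not name as heat shock proteins, such as NudC proteins of nuclear migration. Of these 12 genes, 9 could be tested, and 1 fell and none rose in each of the comparisons over AH. Of the 36 named as heat shock proteins in either description, 26 could be tested, and 22 fell in NCS over AH, with a median of -1.55. In each of CCS and ACS over AH 13 fell and 1 rose, with medians of -0.51 and -0.56. Of all genes, 13.9%, 20.9% and 21.4% fell in CCS, ACS and NCS, with medians of 0.07, 0.01 and -0.07. These counts keep the genes that passed the filter through AH alone.

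Some genes of a word list for achenes moved with part of these results and others did not. Of 176 genes that the descriptions mark as oleosins, seed storage albumin-type or late embryogenesis abundant proteins, 94 reached 0.5 RPKM, 20 were at 0 throughout, and no gene is described as vicilin, legumin or cruciferin. The list summed to 7801 to 9567 RPKM in CCS, 9028 to 10926 in ACS, 8148 to 8293 in NCS and 14928 to 16164 in AH. The 9 oleosins, which coat the oil bodies of seeds, summed to 1676, 1529 and 516 RPKM in CCS, 2109, 999 and 996 in ACS, 364, 408 and 308 in NCS, and 1341, 1249 and 1742 in AH. They were low in NCS and in CCS replicate 3 and highest in ACS replicate 1, the libraries in which HSP21 was also low or highest. The late embryogenesis abundant genes summed to 2868, 2819 and 1998 RPKM in CCS, 3572, 2973 and 2935 in ACS, 1935, 1926 and 1891 in NCS, and 3132, 2731 and 3127 in AH, with the same libraries low or highest among the stored fruit. This sum mixes unlike genes. FvH4_5g39741 and FvH4_5g03330, described as hydroxyproline-rich glycoproteins of that name, were lowest in AH, at 32.9 and 59.5 RPKM against 337 and 266 in ACS. FvH4_7g15460 was highest in AH, at 549 RPKM against 181 in ACS. The seed storage albumin-type genes did not follow the order of the oleosins. They summed to 4874, 5220 and 5288 RPKM in CCS, 5246, 5056 and 5341 in ACS, 5936, 5960 and 5950 in NCS, and 11691, 11369 and 10059 in AH, so that NCS lay above the cold-stored fruit and all stored fruit far below AH. Most of this sum was FvH4_5g18321, which averaged 4773, 4807, 5607 and 10436 RPKM in CCS, ACS, NCS and AH. It was also the largest part of the sum of the whole list. Its description names lipid-transfer proteins as well as seed storage albumins, so it may not mark achenes alone. The part of achene RNA in the small HSP results was not tested. Ripe receptacle markers summed to 3882, 3316, 4309 and 3339 RPKM in CCS, ACS, NCS and AH, and sepal markers to 30.7, 23.6, 20.7 and 47.2 RPKM.

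**Figure D3:**
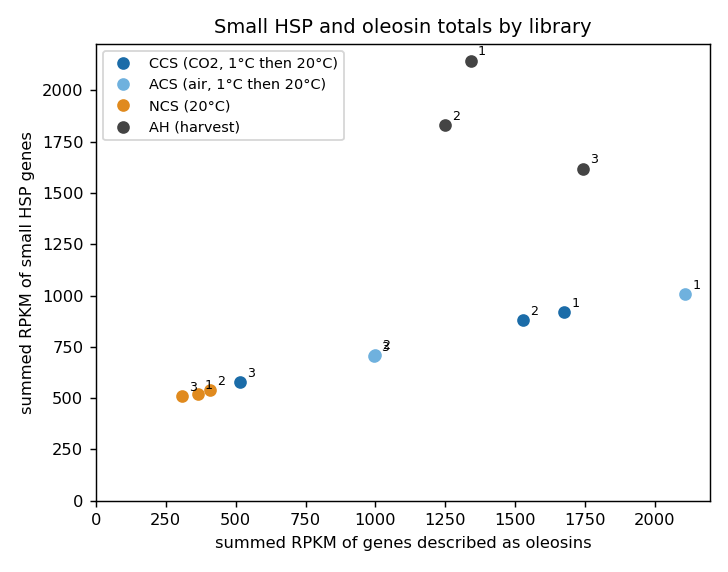
Summed RPKM of the 48 small HSP genes (vertical) against summed RPKM of the 9 oleosin genes (horizontal), 1 point per library, numbered by replicate. NCS lies lowest in both with CCS replicate 3 beside it, ACS replicate 1 is the highest of the stored libraries in both, and AH lies at 1619 to 2144 RPKM of small HSPs with 1249 to 1742 RPKM of oleosins.

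Among all members tested, the largest rise over AH in each stored condition was that of a heat shock factor. FvH4_6g24120, described as factor B3, had 17.5, 17.0 and 18.7 RPKM in CCS, 23.5, 22.1 and 24.8 in ACS, 10.4, 11 and 10.8 in NCS, and 2.47, 1.87 and 1.59 in AH. The 4 conditions did not overlap. The log2 fold change over AH was 3.12 ± 0.16 in CCS, 3.53 ± 0.16 in ACS and 2.40 ± 0.15 in NCS (adjusted p = 1.8e-05, 8.8e-06 and 4.4e-05), which is 8.70-, 11.5- and 5.30-fold. It was higher than NCS by 0.72 in CCS and 1.12 in ACS (adjusted p = 0.00013 and 3.1e-05), and lower in CCS than in ACS by 0.40 ± 0.06 (0.00769).

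FvH4_1g16030, the most abundant factor, is described as factor 4, which in Arabidopsis is the class B factor HSFB1. It had 50.3, 46.6 and 49.5 RPKM in CCS, 54.6, 54.6 and 59.9 in ACS, 26.7, 26.3 and 28.0 in NCS, and 15.1, 12.9 and 11.2 in AH. Here too each condition stood apart. It rose over AH by 1.90 ± 0.12 in CCS, 2.11 ± 0.12 in ACS and 1.05 ± 0.12 in NCS (adjusted p = 5.1e-05, 2.6e-05 and 0.000605), and over NCS by 0.85 in CCS and 1.06 in ACS. The difference of CCS from ACS, -0.21 (adjusted p = 0.0487), was lost when any 1 of the 6 libraries was left out (0.0691 to 0.139).

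A pair of class B factors was of low level. FvH4_3g09340, described as B2A although its second description is of another family, had 0.507, 0.382 and 0.432 RPKM in CCS, 0.670, 0.612 and 0.531 in ACS, 0.225, 0.343 and 0.221 in NCS, and 0.00602, 0.0175 and 0.0626 in AH, where the 3 libraries together hold 15 reads. The 4 conditions ordered as ACS, CCS, NCS and AH without overlap. It passed the filter over AH in ACS alone, through the ACS libraries where it was high, so its call there is no independent result. FvH4_2g34260, described as B4, was highest in NCS with 0.574, 0.582 and 0.569 RPKM, against 0.283, 0.162 and 0.0597 in CCS, 0.277, 0.246 and 0.207 in ACS and 0.0419, 0.0348 and 0.0747 in AH. It passed the filter through the NCS libraries alone, and its calls in the comparisons with NCS are likewise no independent result. FvH4_7g29190, the other B2A gene, was among the more abundant factors. It averaged 13.2, 12.8, 11.9 and 11.1 RPKM in CCS, ACS, NCS and AH and was called in none of the 6 comparisons, although without CCS replicate 3 it was higher in CCS than in NCS by 0.19 (adjusted p = 0.0383).

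Class A factors are the activators. FvH4_1g07800, described as HSFA2, which in Arabidopsis sustains the response to repeated heat, is given here after its values were seen. It had 5.50, 5.71 and 2.52 RPKM in CCS, 6.39, 4.11 and 3.63 in ACS, 2.00, 2.23 and 1.97 in NCS, and 3.91, 5.17 and 6.74 in AH. Like HSP21, it was lowest in NCS, and CCS replicate 3 lay near NCS. It fell by 1.28 in NCS over AH (adjusted p = 0.00206) and rose by 1.11 in ACS and 1.02 in CCS over NCS (0.00513 and 0.0309). The CCS call was lost without CCS replicate 1 or 2 or any NCS library (0.0669 to 0.0913). The second gene described as HSFA2, FvH4_2g31690, averaged 2.92, 2.95, 2.90 and 2.75 RPKM and was not called. FvH4_5g22720, described as A1D, one of the factors that start the response in Arabidopsis, averaged 6.08, 5.33, 4.78 and 5.28 RPKM and differed by 0.34 at most in any call. FvH4_1g04810, of class C, averaged 0.849, 0.833, 0.748 and 1.78 RPKM and fell by 1.00 in CCS, 1.00 in ACS and 1.16 in NCS over AH (adjusted p = 0.00615, 0.000574 and 0.00245).

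By count, 2 of 12 tested factors rose and 1 fell in CCS over AH (all genes 23.6% and 13.9%), 3 of 13 rose and 1 fell in ACS over AH (21.9% and 20.9%), and 4 of 13 rose and 3 fell in NCS over AH (14.7% and 21.4%). Over NCS, 7 of 13 rose and 1 fell in CCS (all genes 37.6% and 14.0%), and 6 of 14 rose and 2 fell in ACS (30.9% and 17.1%). Without FvH4_3g09340 and FvH4_2g34260 where these passed through 1 condition alone, the counts became 2 higher and 1 lower of 12 in ACS over AH, 3 and 3 of 12 in NCS over AH, 7 and 0 of 12 in CCS over NCS, and 5 and 1 of 12 in ACS over NCS.

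**Figure D4:**
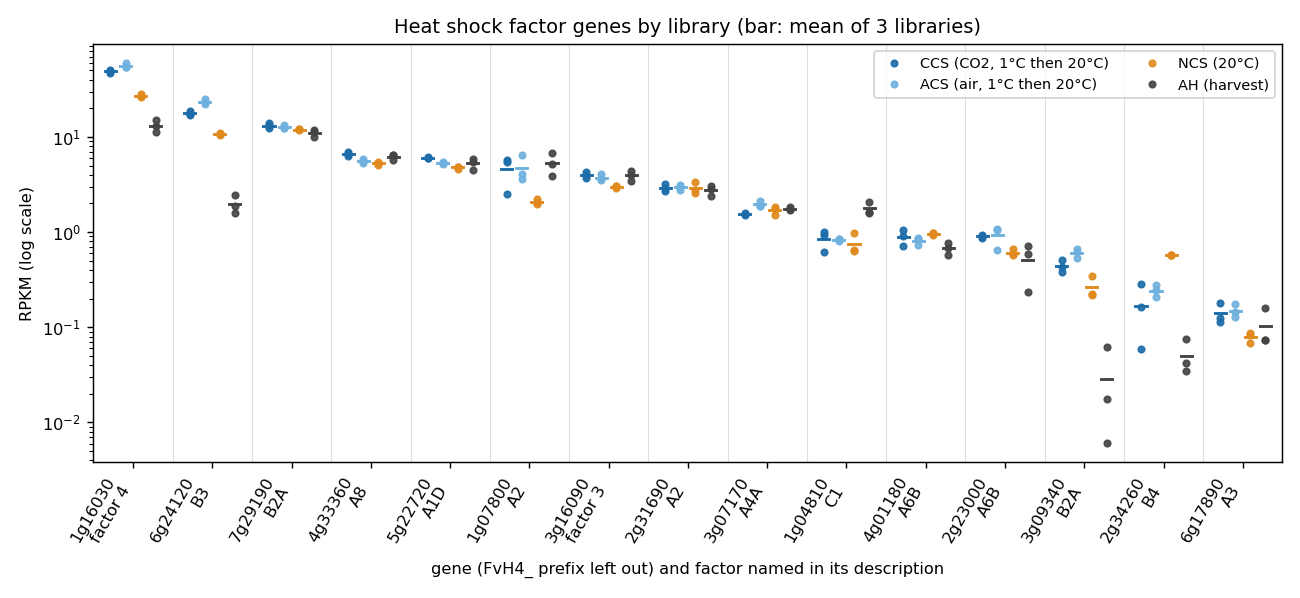
RPKM (log scale) of the 15 heat shock factor genes in every library of CCS, ACS, NCS and AH, ordered by mean, with a bar for the mean of 3 libraries. The 2 most abundant, FvH4_1g16030 and FvH4_6g24120, order as ACS, CCS, NCS and AH from high to low, while FvH4_1g07800 (A2) is lowest in NCS at 1.97 to 2.23 RPKM.

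Among HSP70 genes the constitutive cytosolic form dominated. FvH4_6g14090, described as heat shock cognate 70-1, had 684, 605 and 623 RPKM in CCS, 713, 736 and 756 in ACS, 756, 828 and 760 in NCS, and 522, 556 and 506 in AH. Every stored library stood above AH. It rose by 0.48 in ACS and 0.57 in NCS over AH (adjusted p = 0.00276 and 0.00176) and was lower in CCS than in NCS by 0.29 (0.0122). Its rise in CCS over AH, 0.27 (adjusted p = 0.0473), was lost without any 1 of the 6 libraries (0.0524 to 0.152) and with median-of-ratios scaling (0.15, adjusted p = 0.307). Its relatives FvH4_7g22170 and FvH4_5g34480 averaged 59.5 and 34.0 RPKM in CCS, against 74.8 and 43.3 in NCS, and were lower in CCS by 0.33 and 0.35 (adjusted p = 0.00421 and 0.00563). Near-identical HSP70 copies may share reads.

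FvH4_6g41130, described as HSP70, separated cold-stored fruit from the rest. It had 8.01, 7.15 and 6.84 RPKM in CCS, 6.99, 8.38 and 7.72 in ACS, 1.14, 0.989 and 0.829 in NCS, and 0.795, 0.943 and 0.907 in AH. All 6 cold-stored libraries lay above all NCS and AH libraries, while CCS overlapped with ACS and NCS with AH. The log2 fold change was 2.92 ± 0.10 in CCS and 2.99 ± 0.10 in ACS over AH (adjusted p = 4.7e-06 and 3.5e-06), 2.78 ± 0.12 and 2.85 ± 0.12 over NCS (1.2e-05 and 1.4e-05), 0.14 ± 0.13 in NCS over AH (0.447) and -0.07 ± 0.09 in CCS over ACS (0.605). CCS replicate 3 and ACS replicate 1 did not stand apart here.

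The BiP proteins are the HSP70 of the endoplasmic reticulum. FvH4_5g11500, described as BiP2, had 146, 133 and 136 RPKM in CCS, 141, 139 and 144 in ACS, 125, 130 and 126 in NCS, and 216, 210 and 195 in AH. All stored fruit lay below AH, by 0.58 in CCS, 0.55 in ACS and 0.71 in NCS on the log2 scale (adjusted p = 0.00181, 0.00141 and 0.000471). FvH4_6g06470, described as similar to BiP4, averaged 3.17 ± 0.0907 RPKM in CCS, 3.45 ± 1.10 in ACS, 1.19 ± 0.160 in NCS and 4.16 ± 0.598 in AH (SD, n = 3 each). It fell by 1.72 in NCS over AH and rose by 1.34 in CCS and 1.42 in ACS over NCS (adjusted p = 0.000124, 9.5e-05 and 0.00289). FvH4_1g00710, a cytosolic-type HSP70, had 85.5, 78.8 and 53.6 RPKM in CCS, 125, 74.0 and 76.4 in ACS, 42.3, 39.8 and 48.9 in NCS, and 97.5, 98.9 and 137 in AH. It was again lowest in NCS, by 1.33 against AH (adjusted p = 0.000685), and ACS exceeded NCS by 1.03 (0.00796). Its rise in CCS over NCS, 0.71 (adjusted p = 0.0188), was lost without CCS replicate 1 or 2 or NCS replicate 1 or 2 (0.0535 to 0.0628).

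Of the 17 tested HSP70 genes, 2 rose and 5 fell in CCS over AH, 2 rose and 4 fell in ACS over AH, and 1 rose and 5 fell in NCS over AH. The shares called were 41.2%, 35.3% and 35.3%, near the 37.5%, 42.8% and 36.1% of all genes. Over NCS, 4 of 16 rose and 3 fell in CCS and 6 of 17 rose and 2 fell in ACS, or 43.8% and 47.1% called against 51.6% and 48.0% of all genes.

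Of the 8 HSP90 genes 5 could be tested. In CCS over AH 2 rose and 2 fell (all genes 23.6% and 13.9%), and in ACS over AH 1 fell (all genes 21.9% and 20.9%). In NCS over AH 1 rose and 2 fell (all genes 14.7% and 21.4%). Over NCS, 2 rose in CCS (all genes 37.6%) and 1 rose in ACS (30.9%), and none fell. The most abundant, FvH4_3g42240, a cytosolic HSP90, had 262, 233 and 237 RPKM in CCS, 241, 249 and 254 in ACS, 274, 279 and 261 in NCS, and 218, 221 and 200 in AH. Its only call over AH, 0.35 in NCS over AH (adjusted p = 0.013), was lost without NCS replicate 1 or 2 (0.0592 to 0.0609). FvH4_7g30260 averaged 75.6 RPKM in CCS, 86.5 in ACS and 73.9 in NCS, and had 96.2, 91.1 and 113 RPKM in the AH libraries. Its falls over AH, 0.40 in CCS and 0.43 in NCS, were lost without some libraries (CCS replicate 1, 2 or 3 or AH replicate 3 for CCS, with 0.0561 to 0.107, and NCS replicate 1 or 2 for NCS, with 0.0749 to 0.0814).

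FvH4_7g30272, described as HSP90.1 and given here after its values were seen, was lower in all stored fruit. It had 5.56, 5.43 and 5.21 RPKM in CCS, 6.83, 6.16 and 5.77 in ACS, 6.07, 5.27 and 6.63 in NCS, and 7.81, 7.66 and 8.54 in AH. No stored library reached AH, and the fall was 0.56 in CCS, 0.35 in ACS and 0.42 in NCS on the log2 scale (adjusted p = 0.00199, 0.0236 and 0.0214). The ACS call was lost without ACS replicate 2 or 3 or AH replicate 2 or 3 (0.054 to 0.089), and the NCS call without NCS replicate 1 or 2 or AH replicate 2 or 3 (0.0514 to 0.0692). Its identifier is close to that of FvH4_7g30260, and the pair may share reads.

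A pair of HSP90 genes was highest in CCS. FvH4_6g41100, described as HSP89.1, the mitochondrial HSP90 of Arabidopsis, had 33.9, 32.8 and 34.2 RPKM in CCS, 29.1, 29.1 and 27.9 in ACS, 19.9, 20.5 and 22.0 in NCS, and 22.3, 25.3 and 27.3 in AH. The CCS libraries stood above all others and ACS above NCS. CCS exceeded NCS by 0.69 ± 0.06 and ACS exceeded NCS by 0.46 ± 0.06 (adjusted p = 0.000153 and 0.00102). Its difference in CCS over ACS, 0.23 (adjusted p = 0.0167), was lost without CCS replicate 3 or ACS replicate 2 (0.0571 to 0.0636) and with median-of-ratios scaling (0.16, adjusted p = 0.0742), and its call in CCS over AH, 0.43 (0.0128), without CCS replicate 3 (0.0526). FvH4_2g13180, described as HSP90.1, had 3.18, 2.94 and 3.05 RPKM in CCS, 1.90, 1.86 and 2.32 in ACS, 1.70, 1.30 and 2.11 in NCS, and 1.86, 1.16 and 1.29 in AH. CCS stood apart from the other 3 conditions, which overlapped. It rose in CCS by 1.07 over AH, 0.83 over NCS and 0.58 over ACS (adjusted p = 0.00281, 0.00583 and 0.00758).

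Most DNAJ genes, the HSP70 partners, were not called over AH. In CCS over AH, 4 of 46 rose and 8 fell, in ACS over AH 4 of 47 rose and 6 fell, and in NCS over AH 3 of 46 rose and 10 fell. The shares called were 26.1%, 21.3% and 28.3%, against 37.5%, 42.8% and 36.1% of all genes. Over NCS, 15 of 46 rose and none fell in CCS (all genes 37.6% and 14.0%), and 11 of 46 rose and 2 fell in ACS (30.9% and 17.1%), so that no more of them rose than of all genes. With median-of-ratios scaling these became 4 higher and 8 lower in CCS and 6 higher and 5 lower in ACS. Of all genes changed under that scaling, 44.4% were higher in CCS and 45.5% in ACS.

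FvH4_4g18840 was the most abundant gene of the DNAJ class and the 1 with the largest rise, but its second description is of a major allergen, so its class is uncertain. It had 119, 130 and 135 RPKM in CCS, 164, 156 and 157 in ACS, 125, 122 and 136 in NCS, and 47.1, 39.2 and 37.9 in AH. All stored libraries stood above AH. It rose over AH by 1.63 ± 0.11 in CCS, 1.94 ± 0.10 in ACS and 1.63 ± 0.11 in NCS (adjusted p = 6.2e-05, 1.7e-05 and 5.0e-05). FvH4_6g51170 had 2.55, 2.58 and 2.35 RPKM in CCS, 2.16, 2.53 and 2.27 in ACS, 1.15, 1.09 and 1.30 in NCS, and 5.96, 4.36 and 5.52 in AH. It fell over AH by 1.04 in CCS, 1.14 in ACS and 2.06 in NCS, and was higher than NCS by 1.02 in CCS and 0.92 in ACS (adjusted p = 0.000118 and 0.000346). FvH4_3g08630, described as an HSP40 of subfamily B, averaged 33.4, 34.0, 36.2 and 50.1 RPKM in CCS, ACS, NCS and AH and fell in all 3 over AH, by 0.58, 0.56 and 0.47. FvH4_5g26910 averaged 44.0, 44.2, 44.7 and 51.0 RPKM. Its call in CCS over AH (-0.21, adjusted p = 0.0494) was lost without any CCS library or AH replicate 2 or 3 (0.0868 to 0.16). FvH4_2g09560 averaged 10.7, 9.16, 11.3 and 11.9 RPKM and was lower in ACS than in NCS by 0.29 and than in AH by 0.38 (adjusted p = 0.00547 and 0.00728).

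Among the other members, FvH4_2g19800, the mitochondrial chaperonin HSP60, was highest in CCS. It had 38.0, 37.5 and 39.6 RPKM in CCS, 29.1, 31.4 and 32.5 in ACS, 20.6, 21.6 and 21.5 in NCS, and 20.1, 25 and 24.0 in AH. CCS exceeded every other library, and ACS exceeded NCS and AH. CCS was higher by 0.74 over AH and 0.85 over NCS (adjusted p = 0.00174 and 3.5e-05), and by 0.31 over ACS (0.0141, lost without CCS replicate 3 at 0.0515 and with median-of-ratios scaling at 0.0544). ACS was higher than NCS by 0.54 (adjusted p = 0.000624), and its call over AH, 0.43, was lost without ACS replicate 2 or 3 (0.069 to 0.0696).

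FvH4_2g25350 is described as a heat shock factor binding protein, a class that binds factors and damps them, but its second description differs. It averaged 35.5 ± 0.707, 46.4 ± 0.802, 37.2 ± 1.04 and 20.2 ± 4.44 RPKM in CCS, ACS, NCS and AH (SD, n = 3 each), and rose over AH by 0.83, 1.22 and 0.90 in CCS, ACS and NCS. The second such gene, FvH4_4g18020, averaged 16.9, 14.6, 16.7 and 22.4 RPKM. FvH4_6g31170, described as HSP91, averaged 85.8, 94.3, 92.7 and 78.7 RPKM, and its call in ACS over AH (0.26, adjusted p = 0.0475) was lost without any ACS library or AH replicate 2 (0.102 to 0.136). Of the HSP101 genes, the disaggregases, FvH4_5g14020 averaged 23.5, 30.3, 21.0 and 31.6 RPKM and FvH4_3g02410 averaged 9.50, 10.2, 9.23 and 8.84 RPKM, and 1 call was made among their comparisons, -0.56 for FvH4_5g14020 in NCS over AH (adjusted p = 0.0438).

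**Figure D5:**
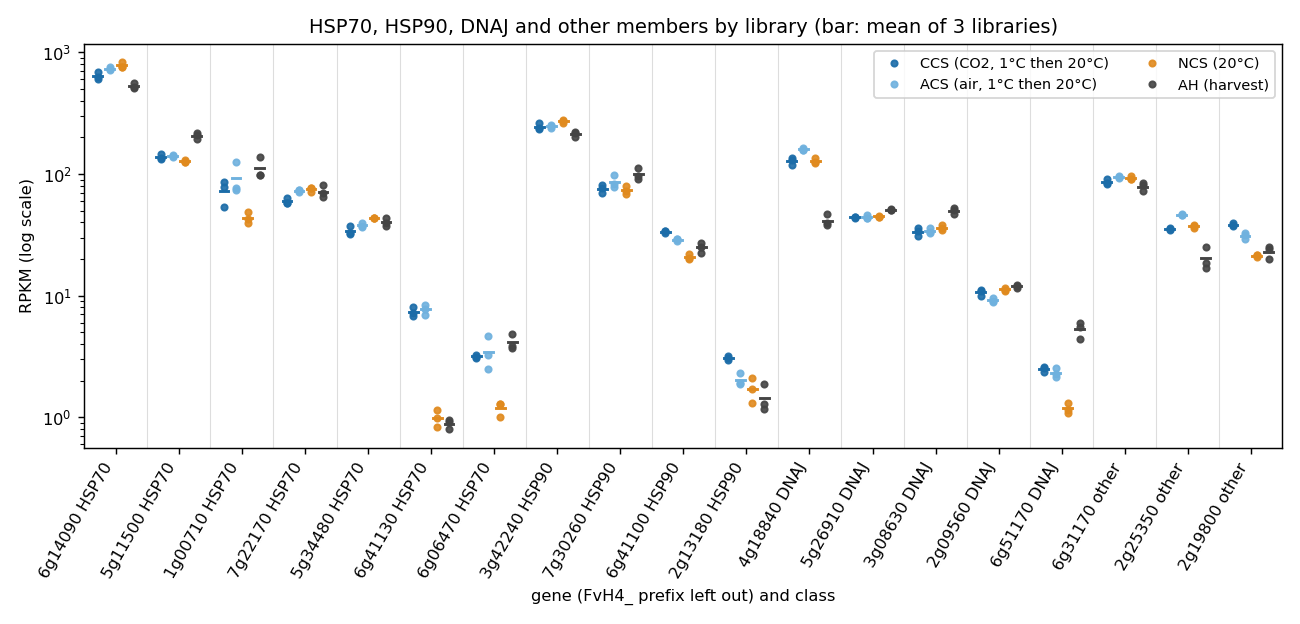
RPKM (log scale) of the named HSP70, HSP90, DNAJ and other members in every library of CCS, ACS, NCS and AH, with a bar for the mean of 3 libraries. FvH4_6g41130 lies at 6.84 to 8.38 RPKM in cold-stored fruit and at 0.795 to 1.14 elsewhere, and FvH4_4g18840 lies at 37.9 to 47.1 RPKM in AH and at 119 to 164 in stored fruit.

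The comparison of CCS with ACS sets CO2-treated against untreated cold-stored fruit, from a single container each, so CO2 and container cannot be told apart in it. Of 122 members tested, 10 rose and 10 fell (all genes 18.4% and 10.3%), and no member was a DEG by limma or by voom (limma, all genes 0.318%). An unadjusted limma p below 0.05 was found in 34 of the 122 members, against 7003 of 16680 genes, so the members' share was the smaller. With median-of-ratios scaling 2 rose and 13 fell, and with voom on recovered reads 4 rose and 14 fell. Of all genes changed under these settings, 42.3% and 44.7% rose. The 20 calls became 8 without CCS replicate 2, 7 without CCS replicate 3 and 8 without ACS replicate 2. Of the 31 small HSPs 2 rose and 2 fell. HSP21 differed by -0.17 ± 0.64 (adjusted p = 0.862), which is too wide to show that the 2 storages were alike. FvH4_2g31371 was lower in CCS by 0.43 (adjusted p = 0.0312), a call lost without any CCS library or ACS replicate 2 (0.059 to 0.0897), and FvH4_3g02330 was higher by 0.61 ± 0.10 (0.00783). The members with calls in CCS over ACS that held under every left-out library and under scaling included the HSP90 gene FvH4_2g13180, higher in CCS, and the factor FvH4_6g24120 and the factor binding protein FvH4_2g25350, lower in CCS (-0.40 and -0.39).

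Other genes of protein folding were counted from word lists on the same descriptions. The shares of all genes to read them against were 23.6% higher and 13.9% lower in CCS over AH, 21.9% and 20.9% in ACS over AH, 14.7% and 21.4% in NCS over AH, 37.6% and 14.0% in CCS over NCS, and 30.9% and 17.1% in ACS over NCS. Of 15 chaperonin genes besides HSP60, 10 rose and 1 fell in CCS over NCS, 3 rose and 1 fell in ACS over NCS, and over AH 1 rose in CCS, 1 fell in ACS and 1 fell in NCS. Of 12 tested genes of the endoplasmic reticulum (calreticulin, calnexin, disulfide isomerase), 2 rose in each of CCS, ACS and NCS over AH, while 4 fell in CCS, 7 in ACS and 7 in NCS. Over NCS, 5 of them rose and 1 fell in CCS, and 1 rose and 2 fell in ACS.

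J proteins described without heat shock gave 8 higher and 7 lower of 55 in CCS over AH, 10 and 10 of 56 in ACS over AH, and 5 and 15 of 55 in NCS over AH. Over NCS, 17 of 55 rose and 8 fell in CCS, and 14 rose and 8 fell in ACS. Of 35 tested Clp proteins, 2 rose and 5 fell in CCS, 1 rose and 10 fell in ACS, and 1 rose and 5 fell in NCS over AH. Over NCS the Clp split was 10 higher and 4 lower in CCS, and 4 higher and 8 lower in ACS. Co-chaperones and prolyl isomerases, of which 44 were tested over AH, gave 5 higher and 9 lower in CCS, 3 and 11 in ACS, and 4 and 10 in NCS. Over NCS, 17 of 44 rose and 7 fell in CCS, near the shares of all genes, and 8 of 43 rose and 8 fell in ACS. Of 13 tested genes of families that heat shock factors are known to activate in Arabidopsis (galactinol synthase, ascorbate peroxidase, multiprotein bridging factor), 3 rose and 1 fell in CCS, 6 rose and 3 fell in ACS, and 4 rose and 2 fell in NCS over AH. Over NCS, 4 rose and 3 fell in CCS and in ACS. The medians of these lists lay between -0.36 and 0.24 on the log2 scale over the 6 comparisons.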

How the data were processed

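Total RNA of whole strawberry fruit in 4 conditions was sequenced as paired-end reads, with 3 libraries each, grouped by the labels. The authors trimmed with cutadapt 1.16.6, aligned with HISAT2 2.1.0 to the *Fragaria vesca* genome and counted reads per gene without strand. The deposited values are RPKM, unfiltered and unpooled. The 6 deposited columns of log2 fold changes hold the authors' own comparisons and were not used.

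The members, classes and lists were chosen with earlier results of these data known. Genes described as HSP81.4 were taken as HSP90. limma 3.58.1 in R 4.3.3 was run on log2(RPKM + 0.1) for each pair of conditions, keeping genes for which 3 or more of the 6 libraries reached 0.5 RPKM, with eBayes and Benjamini-Hochberg adjustment over all genes tested. An exact permutation test of 3 libraries against 3 has 0.1 as its smallest p, so p-values rest on the model. Errors beside fold changes are SE. Tables were made with Python 3.11.15 and pandas 2.3.3.

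By rule, the text names the 3 most abundant members of each class, each DEG, and in each comparison up to 3 members that rose and 3 that fell most among changed members whose libraries do not overlap, 40 genes in all. Others are named for context.

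Low RPKM values are whole multiples of 1 read. Reads were recovered for 30994 of 30995 genes above 0 (tolerance 0.02 reads), and counting error covers sampling only. The recovery used the RPKM values alone. On simulated data for NCS over AH all 200 changed genes among 15907 were recovered, with 21 false calls. The simulation gave every gene the same small noise between libraries and changed only genes above the filter minimum. It therefore says nothing of low genes or of the wide spread between libraries of some small HSPs. Alternatives were a pseudocount of 1, no filter, median-of-ratios scaling, voom with TMM scaling on recovered reads, eBayes with a trend, 1 fit of all 12 libraries, a replicate block and leaving out each library. Counts without members that passed the filter through 1 condition alone were added after seeing the data.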

Additional observations from a re-analysis of the deposited data

How the results depend on the processing

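Of 136 called fold changes of named genes, recomputed 1768 times, 1639 kept their call, 129 lost it and none reversed. Only values already called were counted, and many of these genes were named for large or non-overlapping differences. A reversal was therefore unlikely from the start. The count of changed members in CCS over ACS was 20. It was 11 with no filter and 12 with all 12 libraries in 1 fit, and 7 to 19 when a library was left out (8 without CCS replicate 2, 7 without CCS replicate 3 and 8 without ACS replicate 2). The 7 DEGs of ACS over NCS became 4 with a pseudocount of 1, and 4 to 9 when a library was left out, with 4 without ACS replicate 1. With median-of-ratios scaling the class totals were 556 RPKM in NCS for small HSPs, 1265 in NCS for HSP70, 340 in CCS, 397 in NCS and 353 in AH for HSP90, 432 in CCS and 461 in NCS for DNAJ, 102 in CCS, 77.2 in NCS and 55.3 in AH for factors, and 211 in CCS and 223 in NCS for the others. The cause of these shifts was not tested, apart from the scaling itself. Same-numbered libraries were not treated as paired: in no pair of conditions did all same-number correlations exceed 0.1. For CCS and ACS these were 0.28, 0.05 and 0.39, with a mean of 0.24 against -0.12 for other numbers, so the rule does not settle pairing there. With the replicate block 43 members were changed in CCS over AH, 37 in ACS over AH, 51 in NCS over AH, 53 in CCS over NCS, 48 in ACS over NCS and 14 in CCS over ACS. With 1 container per cold storage and 3 libraries per condition, small differences were not resolved.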
